A study of Mus musculus with 24 samples.

Results

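Casp2-depleted cardiomyocyte (CM) nuclei of postnatal day 1 (P1) and P14 gave 7 of the 24 nuclear RNA libraries of the series. They were chosen by genotype and day alone: P1 replicates 1 to 4 and P14 replicates 2 to 4 of XMLC2+Casp2fl/fl mice. P14 replicate 1 was left out, as was done for the original analysis. Only 4285 genes had a read there, against 9428 to 12327 in the other 3 P14 libraries. In XMLC2+Casp2fl/fl mice both Casp2 alleles are floxed, and a Cre recombinase under the XMLC2 promoter, active in CMs, removes the gene in these cells while other heart cells keep it. The control mice, XMLC2-Casp2fl/fl, carry the same floxed alleles without Cre, so the floxed allele is shared by every group and the Cre transgene by the depleted groups alone. Nuclei were stained for PCM1, a centrosomal protein that sits on the nuclear envelope of CMs, and sorted. Each library is 1 pool of hearts of the same age, with 15 hearts at P1, 6 at P7 and 2 at P14. The tags come from the 3′ ends of transcripts, and reads anywhere in a gene, in exons or introns, were counted.

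Around birth, mouse CMs divide, and in the weeks that follow most of them stop dividing and become polyploid. Over the same weeks they replace fetal sarcomere proteins, such as slow skeletal troponin I, by adult ones, build up the membranes and channels that couple excitation to contraction, and turn from glucose to fatty acids as fuel. Caspase-2 is the protease of the PIDDosome, a complex of PIDD1 and CRADD that forms in cells with extra centrosomes. Its known substrate MDM2 restrains p53, the activator of the cell cycle inhibitor p21 (Cdkn1a). The comparison of P14 with P1 asks which nuclear RNAs differed between the 2 ages in CMs without Caspase-2.

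Casp2 (ENSMUSG00000029863, GRCm39 chromosome 6, 42241918 to 42259443, plus strand) was at 0 reads in all 7 libraries and also in the P1 and P14 control libraries, so its level could not check the labels. The limit that a count of 0 allows was 1.10 to 2.46 CPM (reads of a gene per 1000000 reads on genes) at P1 and 2.57 to 3.07 CPM at P14. Reads on genes numbered 1220640 to 2727103 per library at P1 and 976714 to 1167439 at P14. The share of uniquely placed reads that fell on no gene was 49.8, 68.2, 70.6 and 36.8% in P1 replicates 1 to 4. It was 72.2, 76.1 and 75.5% in P14 replicates 2 to 4, above every P1 library (exact permutation test, two-sided, p = 0.0571, the smallest that 3 against 4 libraries allow). The summed level of 14 CM markers was 47317.5, 37039.8, 34892.4 and 85959.7 CPM at P1 and 32514.8, 18982.5 and 21663.5 CPM at P14, lower in each P14 library (exact permutation p = 0.0571). At most 1 of the 14 was at 0 in a library, and 10 of the 14 were called lower in the test across genes described below. Summed macrophage markers were 238 to 493 CPM at P1 and 608 to 804 CPM at P14, and summed lymphocyte markers 248 to 669 and 939 to 1215 CPM, both higher at P14 (exact permutation p = 0.0571 each). The markers Cd68, C1qa, C1qb, C1qc, Lyz2, Tyrobp, Cd3e, Cd8a, Cd79a and Nkg7 had no read in any of the 7 libraries. Of the 14 macrophage markers 6 to 8 were at 0 at P1 and 7 to 10 at P14, and of the 11 lymphocyte markers 6 at P1 and 5 to 7 at P14. Among single lymphocyte markers only Skap1 was higher in each P14 library (82.9 to 347 CPM at P1, 489 to 694 CPM at P14). The other lymphocyte markers with reads, and every single macrophage marker, overlapped between the days. The part of these markers in the results below was not tested. Fibroblast markers (116 to 473 CPM at P1, 397 to 505 at P14) and endothelial markers (397 to 1092 and 1006 to 1177 CPM) overlapped between the days. Summed mural cell markers, of which 4 to 5 of 11 were at 0 at P1 and 4 to 7 at P14, moved the other way, at 415 to 557 CPM at P1 and 183 to 409.6 CPM at P14 (exact permutation p = 0.0571). Among single mural markers only Abcc9 was lower in each P14 library (246 to 403 CPM at P1, 25.7 to 128 CPM at P14). It is also counted below among potassium channel genes, and every other mural marker with reads overlapped. In bulk libraries, fewer CM nuclei in a pool and less RNA of a gene per nucleus cannot be told apart.

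**Figure D1:**
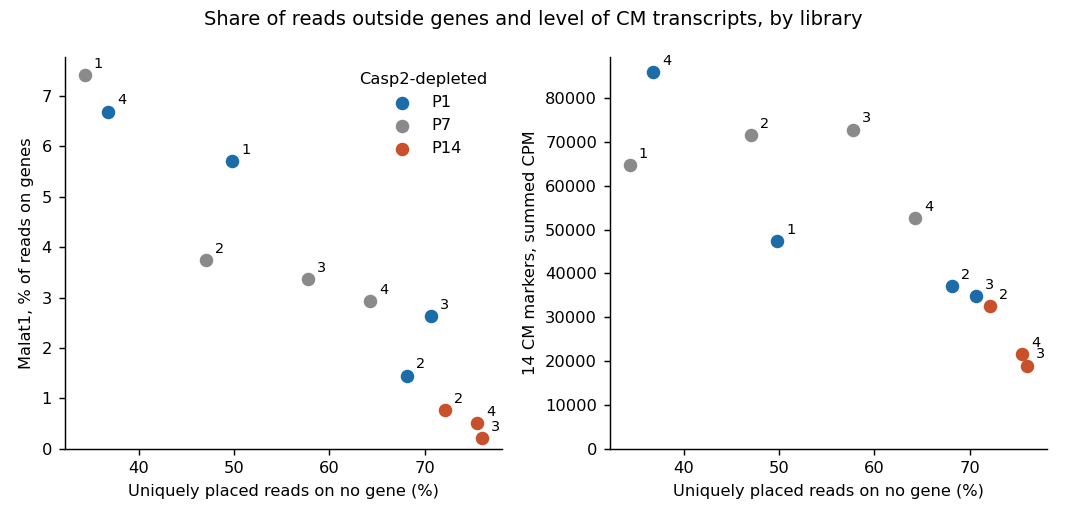
Each point is 1 Casp2-depleted library at P1, P7 or P14, numbered by replicate. The horizontal axes give the percentage of uniquely placed reads on no gene, and the vertical axes the percentage of reads on genes that lie on Malat1 (left) and the summed level of 14 CM markers in CPM (right). The 3 P14 libraries lie at 72.2 to 76.1% on no gene, P1 replicates 2 and 3 at 68.2 and 70.6%, and P1 replicates 1 and 4 at 49.8 and 36.8%.

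Between P1 and P14, far more genes were lower than higher in Casp2-depleted CM nuclei. Of 20368 genes tested, 433 were called lower at P14 (2.13%) and 9 higher (0.0442%). Among the 1655 genes with a mean of at least 100 CPM over the 7 libraries, 189 were called lower (11.4%). Calls needed an adjusted p (Benjamini-Hochberg) under 0.05 in the quasi-likelihood test of edgeR, the source of all adjusted p below, together with a log2 fold change beyond 1 in size. Levels below are CPM scaled by the trimmed mean of M-values (TMM). The P14 and P1 libraries did not overlap for 973 genes that were lower (4.78%) and 410 that were higher (2.01%), and 267 of the 433 called genes were among the former. The median log2 fold change over all genes tested was -0.41, so changes are to be read against this shift, which was 0.00 when libraries were scaled by their size alone. Of the 433 genes called lower, 126 had no read at P14 and another 30 had 1 to 3 reads. Below, a fold given as at least a value, or with a counting interval, covers counting error only. Between libraries of the same day, the squared spread was 43.6 to 83.5 times that of counting error (chi-square per degree of freedom). Such bounds and intervals therefore do not limit the fold between the ages.

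The calls were unevenly supported by the P1 libraries. P1 replicate 4, with the lowest share of reads on no gene, was the highest P1 library for 313 of the 433 genes, replicate 1 for 77, replicate 2 for 25 and replicate 3 for 18. Without P1 replicate 4, 196 genes were called lower and 5 higher. Without P1 replicate 1 the counts were 247 and 7, without P14 replicate 3 they were 237 and 7, and without P14 replicate 4 they were 193 and 6. Against P1 replicates 2 and 3 alone, whose shares on no gene were nearest to those at P14, 91 were called lower and 8 higher. With that share as a term in the fit, 83 were called lower and 2 higher. Each P14 library had a higher share than every P1 library, so the share and age cannot be fully told apart. The fit against replicates 2 and 3 has fewer P1 libraries. A call lost in these 2 fits therefore does not show that a gene was unchanged. With the replicate number as a block, 272 were called lower, 263 of them among the 433, and 2 higher. The deposited file names give these numbers as batches without saying what a batch is.

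Other tools called partly different genes. limma-trend on log2 CPM, chosen after seeing the data, called 293 lower, 215 of them among the 433, and 17 higher. limma-voom called 373 lower and 56 higher with TMM, of which 137 and 4 were shared with the calls above, and 431 lower and 179 higher with quantile normalization, of which 160 and 4 were shared. In both voom fits the trend from which each read count gets its weight fell below 0 at the highest counts (lowest value -0.253 and -0.215), and single weights reached 7.66e+12 and 4.32e+11, so their p-values for the most abundant genes carry no meaning. Tnnt2, Ankrd1 and Malat1, for example, had log2 fold changes of -2.24, -4.15 and -3.62 with limma-voom and TMM, and adjusted p of 0.713, 0.933 and 0.843. With limma-trend, which uses no such weights, the adjusted p of the same genes was 3.85e-07, 6.77e-05 and 6.06e-07.

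A group of 69 genes called lower stayed called against P1 replicates 2 and 3 alone, with the share as a term, and without each of the 7 libraries in turn, and the genes below that belong to it are named as such. These 9 settings are meant wherever all 9 settings are mentioned. All 69 were also called with the replicate block, 68 with limma-trend and 30 with limma-voom and TMM. Only 16 genes were called lower under every setting that was run, so a call under all 9 settings is not a call under every one.

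**Figure D2:**
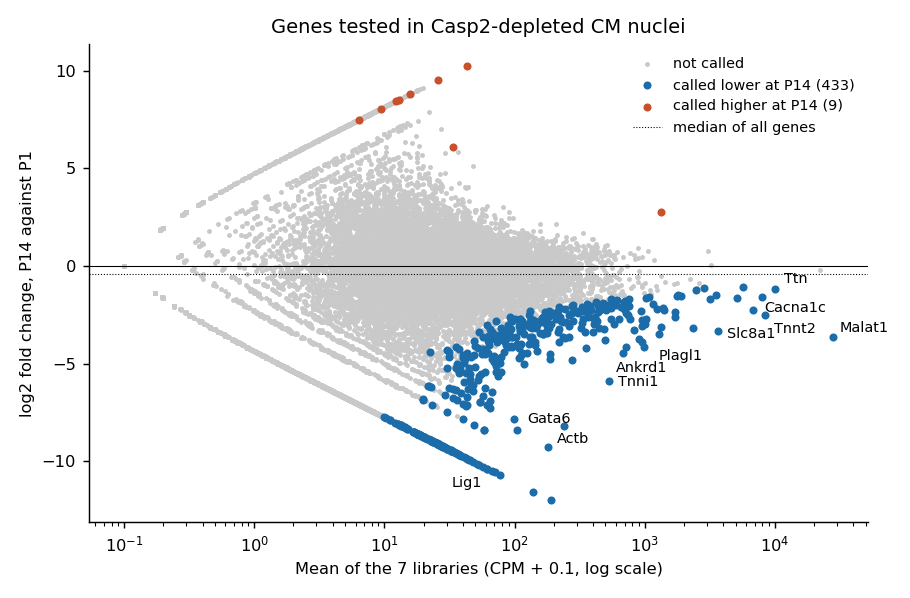
Each of the 20368 genes tested is drawn by its mean over the 7 libraries (CPM + 0.1, log scale) and its fitted log2 fold change, P14 against P1. The 433 genes called lower are blue, the 9 called higher red, and the dotted line is the median of all genes, -0.41. Genes with no read at P14 or at P1 form the straight lower and upper edges, where the fitted value is set by the prior count and is no measured fold. Of the 46 genes with a mean of at least 1000 CPM, 29 were called lower (63%).

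Genes of the sarcomere were among those that fell. Of 12 adult sarcomere isoforms tested, 9 fell, with a median log2 fold change of -2.70. Of 11 genes listed as fetal and neonatal isoforms, 3 fell (Myl9, Smpx and Tnni1, median -2.50). Of 27 genes of titin, Z-disc and M-band, 10 fell (median -1.87). No gene of the 3 lists was called higher. How many fell depended on the test: for adult isoforms, fetal isoforms and the titin list in turn, the counts were 7, 4 and 10 with DESeq2, 6, 3 and 6 with the stricter filter filterByExpr, 4, 3 and 7 with limma-trend and 0, 2 and 1 with limma-voom and TMM. Under all 9 settings 2, 2 and 1 stayed called, those of the fetal list being Tnni1 and Myl9.

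Tnni1 (ENSMUSG00000026418, GRCm39 chromosome 1, 135707172 to 135738727, plus strand), the slow skeletal troponin I of the fetal heart, was at 677, 924, 607 and 1482 CPM in P1 replicates 1 to 4. At P14 it was at 43.6, 3.14 and 0.653 CPM in replicates 2 to 4. Every P14 library was far below every P1 library, and the 4 P7 libraries, at 424 to 978 CPM, overlapped with P1. Tnni1 fell by 5.87 on the log2 scale (SE 0.71, adjusted p = 3.98e-13), and the call held under all 9 settings. Tnni3, the cardiac troponin I of the adult heart, was at 639.5, 249, 207 and 1627 CPM at P1 and at 83.6, 25.8 and 183 CPM at P14. Its libraries did not overlap, and it fell by 2.80 (SE 0.54, adjusted p = 5.98e-05). Against P1 replicates 2 and 3 alone its log2 fold change was -1.21 (adjusted p = 0.49), and with the share on no gene as a term -0.89 (adjusted p = 0.565).

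Tnnt2 (ENSMUSG00000026414, chromosome 1, 135763738 to 135780315), the cardiac troponin T that ties troponin to tropomyosin, was among the most abundant CM transcripts. It was at 7069, 9516, 10354 and 24992 CPM at P1 and at 3102, 1413 and 2319.7 CPM at P14. The days did not overlap, and Tnnt2 fell by 2.51 (SE 0.29, adjusted p = 2.22e-14), also under all 9 settings. Tnnc1, cardiac troponin C, the calcium sensor of the thin filament, was singled out after its values were seen because it too stayed called under the 9 settings. It went from 2087 ± 870 to 467 ± 469 CPM (mean ± SD of 4 and 3 libraries) with a log2 fold change of -2.16 (SE 0.44, adjusted p = 0.000188). The P14 mean of Tnnc1 rests on replicate 2 at 1007 CPM, while replicates 3 and 4 were at 173 and 221 CPM.

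Among other members of the sarcomere lists, Myl9, a regulatory myosin light chain, fell by 4.69 (SE 1.05, adjusted p = 0.00131). It had 30 reads in 1 P14 library and none in the others, and held under all 9 settings. Csrp3, the muscle LIM protein of the Z-disc, was at 13.5 to 102 CPM at P1 and without a read at P14, at least 87.4-fold lower (adjusted p = 0.00216). Myoz2, a calcineurin-binding Z-disc protein, was at 34.6, 0, 15.5 and 137 CPM at P1 and without a read at P14, at least 80.4-fold lower (adjusted p = 0.00102). Both calls ended in the 2 fits that take up the share on no gene (adjusted p = 0.0683 and 0.0665 for Csrp3, 0.162 and 0.226 for Myoz2). Myh6, the adult alpha myosin heavy chain, was at 6886, 2881, 3013 and 16117 CPM at P1 and at 2911, 1958 and 2184 CPM at P14. It fell by 1.62 (adjusted p = 3.06e-05), but overlapped and was not called without P1 replicate 4 (log2 fold change -0.81, adjusted p = 0.172). Ttn, which encodes titin, was at 10419, 1922, 4471 and 35824 CPM at P1 and at 9588, 4177 and 3818 CPM at P14. It passed the test at a log2 fold change of -1.17 (adjusted p = 0.000428), yet its value was 0.12 without P1 replicate 4, and it was not called without P14 replicate 3 (adjusted p = 0.133) or 4 (adjusted p = 0.202). Neither the fetal beta myosin heavy chain Myh7 (-2.90, adjusted p = 0.11) nor the ventricular light chain Myl2 (-1.39, adjusted p = 0.0731) passed the test. Acta1, the skeletal actin of the fetal heart, had at most 13.5 CPM at P1 and no read at P14 (adjusted p = 0.324), and the atrial light chain Myl7 was read in 1 library of each day (20.9 and 39 CPM, adjusted p = 0.924).

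Ankrd1 (ENSMUSG00000024803, chromosome 19, 36089352 to 36097506, minus strand), a titin-binding ankyrin repeat protein that also shuttles to the nucleus, was at 585, 206, 1204 and 2855 CPM at P1. At P7 it was at 3313 to 5121 CPM, above every P1 library, and at P14 it was down to 129, 21.4 and 54.9 CPM. Ankrd1 thus had its highest level of the 3 ages at P7. A P7 level at or above P1 was not particular to Ankrd1. Of the 433 genes called lower at P14, only 145 had a P7 mean below the P1 mean, and none had one below the P14 mean. Between P1 and P14 Ankrd1 fell by 4.14 (SE 0.47, adjusted p = 6.69e-15), also under all 9 settings. Trim55, the muscle ubiquitin ligase MuRF2, went from 818 ± 728 to 59.9 ± 33.3 CPM and fell by 3.77 (SE 0.63, adjusted p = 1.21e-06). Its call did not hold against P1 replicates 2 and 3 alone (adjusted p = 0.242) or with the share on no gene as a term (adjusted p = 0.089).

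The promoters of Ankrd1 and Tnni1 are shown as those of a fetal isoform and of a stress gene that both fell under all 9 settings. They were picked after the values were seen. The sequences are the 250 bases before the transcription start, from RefSeq on GRCm38.p6 (the counts use GRCm39), 5′ to 3′ on the gene's strand. Capitals mark matches, on either strand, to the TEAD motif GGAATG, to the GATA factor motif, spelled AGATAA, or to an E-box, spelled CANNTG, and no 2 of the matches shown overlap.
Ankrd1, chr19:36119845-36120094, minus strand: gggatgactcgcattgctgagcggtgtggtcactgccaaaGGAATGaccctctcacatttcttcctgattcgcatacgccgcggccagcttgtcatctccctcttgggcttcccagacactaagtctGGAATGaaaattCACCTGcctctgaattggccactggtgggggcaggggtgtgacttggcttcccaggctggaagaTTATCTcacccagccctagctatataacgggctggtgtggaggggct
Tnni1, chr1:135799171-135799420, plus strand: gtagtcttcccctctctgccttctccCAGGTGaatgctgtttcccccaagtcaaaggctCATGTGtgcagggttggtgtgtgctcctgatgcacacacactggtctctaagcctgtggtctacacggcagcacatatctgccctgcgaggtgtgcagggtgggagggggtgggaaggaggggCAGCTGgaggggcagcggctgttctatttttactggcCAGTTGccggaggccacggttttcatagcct
Ankrd1 holds TEAD letters 210 and 123 bases before its start, an E-box at 111 and GATA letters at 47. Tnni1 holds 4 E-boxes, at 224, 191, 68 and 31. Of the 433 genes called lower, 342 had promoters in the table (490 promoters), as had 13199 of the genes tested (16785 promoters). TEAD letters were in 13.5% of the promoters of genes called lower and in 13.4% of all, GATA letters in 6.33 and 8.26%, and an E-box in 62.4 and 67.5%. The MEF2 motif was in 1.63 and 0.59% and the CArG box in 2.45 and 1.36%. For the 69 genes that held under all 9 settings, 57 had promoters in the table (83 promoters), and 10.8% of these had TEAD letters, 8.43% GATA letters, 63.9% an E-box and 0% MEF2. These are matches of letters and not sites.

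**Figure D3:**
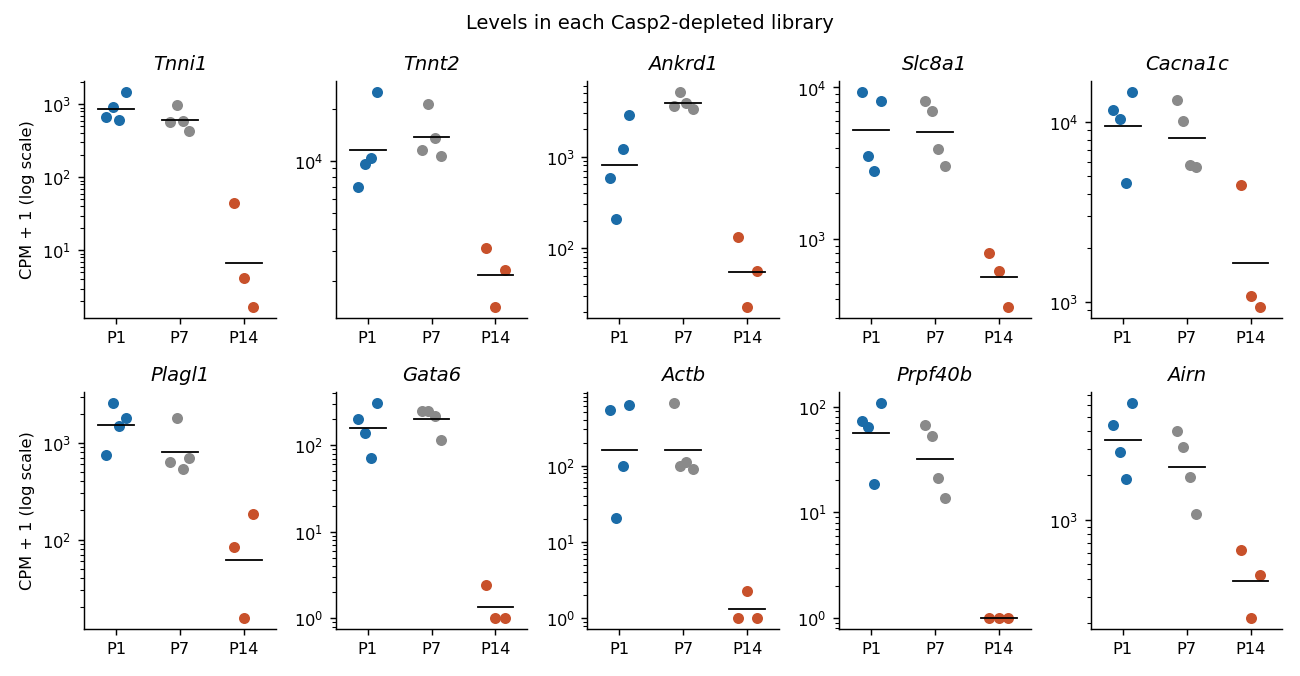
Level of 10 genes in each Casp2-depleted library at P1, P7 and P14 (CPM + 1, log scale). Each point is 1 library and each bar the mean of the log values. For all 10, every P14 library lies below every P1 library. Ankrd1 is highest at P7.

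Some genes of excitation-contraction coupling were lower at P14. The share called lower was 2.13% of all genes tested and 11.4% of those with a mean of at least 100 CPM. Of 25 genes of the sarcoplasmic reticulum and calcium handling, all had a log2 fold change below 0 (median -2.04) and 7 fell (4 with limma-trend), beside 11676 of the 20368 genes tested below 0. Of 13 calcium channel subunits, 2 fell (15.4%), a share not far from that of abundant genes. Slc8a1 (ENSMUSG00000054640, chromosome 17, 81680534 to 82045891), the sodium-calcium exchanger NCX1 that moves calcium out of the cell after each beat, was at 9358, 3527, 2824 and 8093 CPM at P1. It was at 807, 608 and 351 CPM at P14, below every P1 library, and fell by 3.34 (SE 0.39, adjusted p = 2.22e-14). Cacna1c (ENSMUSG00000051331, chromosome 6, 118564201 to 119173851), the pore of the L-type calcium channel, was at 11704, 10378, 4578 and 14734 CPM at P1 and at 4468, 1081 and 931 CPM at P14. The highest P14 library reached just below the lowest P1 library, and Cacna1c fell by 2.26 (SE 0.32, adjusted p = 8.76e-10). Both held under all 9 settings.

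Cacnb2, the beta subunit of the same channel, went from 1852 ± 799.6 to 409 ± 161 CPM and fell by 2.18 (SE 0.47, adjusted p = 0.000562). Ryr2, the calcium release channel of the sarcoplasmic reticulum, went from 11207 ± 5773 to 3759 ± 1829 CPM and fell by 1.58 (SE 0.28, adjusted p = 8.16e-06), with P14 replicate 2 at 5860.0 CPM above P1 replicate 3 at 5578 CPM. With the share on no gene as a term, neither passed the test (adjusted p = 0.149 and 0.145). Jph2, which ties the reticulum to the T-tubules, fell by 2.67 (adjusted p = 0.00173, but 0.058 without P1 replicate 4). Of 28 adrenergic and cyclic nucleotide genes, 4 fell. Among them Adrb1, the beta-1 adrenergic receptor, was at 152, 81.1, 37.8 and 218 CPM at P1 and at 8.43, 1.89 and 0 CPM at P14 (log2 fold change -5.13, SE 1.11, adjusted p = 0.000641). Pde4b, a cAMP phosphodiesterase, fell by 2.73 (SE 0.57, adjusted p = 0.000326). Prkar1a, a regulatory subunit of protein kinase A, had 2 reads at P14 and was 129-fold lower (counting interval 35.5 to 1070.3). In the 2 fits that take up the share on no gene, the adjusted p was 0.0683 and 0.105 for Adrb1, 0.511 and 0.513 for Pde4b and 0.183 and 0.226 for Prkar1a.

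Other membrane genes were called in small numbers. Of 25 potassium channel genes, 2 fell (Abcc9 and Kcnj12), of 18 sodium and pacemaker genes 2 fell, among them Fgf13, of 23 intercalated disc genes 2 fell (Ctnna1 and Ctnna3), and of 19 genes of the dystrophin complex 1 fell (Dmd). Each of these 7 calls was lost without at least 1 library. The nearest to holding were Fgf13, a sodium channel modulator (-1.97, adjusted p = 0.000434, and 0.0537 without P14 replicate 4), and Ctnna3, the heart alpha-catenin (-1.71, adjusted p = 0.000434, and 0.0562 without P14 replicate 4).

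Of the 9 genes called higher, 8 had little or no signal at P1. Gm8865, Gm41715 and Gm27151 had no read at P1 and were at 19.5 to 186, 24.6 to 82.3 and 7.73 to 26.8 CPM at P14, at least 227-fold, 139-fold and 34-fold higher. Gm3838 was at 3.51 CPM at most at P1 and at 34.4, 102 and 95.4 CPM at P14 (log2 fold change 6.11, SE 1.81, adjusted p = 0.0393). C1rl, Gm14625, Gm9078 and Rpl19-ps5, named after their values were seen, had no read at P1 and none in 1 of the 3 P14 libraries, so their libraries overlapped at 0. Of these 8, Gm8865 (adjusted p = 0.00155) kept its call without each library, but not against P1 replicates 2 and 3 alone (adjusted p = 0.119) or with the share on no gene as a term (adjusted p = 0.265). Gm3838 lost its call without P1 replicate 2, 3 or 4 or P14 replicate 3 or 4, with adjusted p of up to 0.158. Gm41715 lost it without P1 replicate 1, 3 or 4 or P14 replicate 3 or 4, with adjusted p of up to 0.109, and Gm27151 without any P1 library or P14 replicate 4, with adjusted p of up to 0.163. Several of the 8 are predicted genes or pseudogenes, whose reads can be shared with near-identical copies.

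Transcription factors of the heart were lower at P14 in part. Of 33 cardiac transcription factors tested, 8 fell (Gata4, Gata6, Irx4, Klf13, Mef2a, Mef2d, Tbx20 and Zbtb20), none rose, and the median was -1.84. With limma-trend 6 of the 33 fell. Gata6 (ENSMUSG00000005836), a zinc finger factor of heart development, was at 203, 138, 70.2 and 311 CPM at P1. At P14 it had 2 reads, both in replicate 2, a level 438-fold below P1 (counting interval 121 to 3619, adjusted p = 2.07e-09). This call held under all 9 settings. Tbx20, a T-box factor of CM identity singled out after its values were seen, was at 237 to 833 CPM at P1 and at 128, 19.5 and 18.9 CPM at P14 (-3.36, SE 0.67, adjusted p = 0.000157), also under all 9. Rara, a retinoic acid receptor, was at 35.1, 46.2, 27.7 and 146 CPM at P1 and had no read at P14, at least 103-fold lower (adjusted p = 0.00025, all 9 settings). Mef2a, a MADS-box factor of muscle genes, fell by 3.44 (adjusted p = 0.00165, but 0.102 without P14 replicate 4). Klf13 and Irx4 had no read at P14 and lost their calls without P14 replicate 3 or 4, with adjusted p of up to 0.0657 for Klf13 and, there or without P1 replicate 4 or P14 replicate 2, 0.154 for Irx4. In the Hippo pathway none of 23 genes was called, and the smallest p belonged to Ccn2 (no read at P14, adjusted p = 0.102) and Tead1 (-2.06, adjusted p = 0.105).

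Fetal growth and imprinted genes fell in 3 of 22 cases. Plagl1 (ENSMUSG00000019817, chromosome 10, 12936248 to 13007438), an imprinted zinc finger regulator of fetal growth, was at 741, 2605, 1506 and 1791 CPM at P1. It was at 531 to 1814 CPM at P7 and at 82.9, 14.5 and 184 CPM at P14. All P14 libraries were below all P1 and P7 libraries, and Plagl1 fell by 4.14 (SE 0.57, adjusted p = 5.8e-10). Airn (ENSMUSG00000078247, chromosome 17, 12960198 to 13079299, plus strand), the imprinted antisense RNA of Igf2r, went from 3836 ± 1896 to 419.9 ± 204 CPM and fell by 3.19 (SE 0.43, adjusted p = 3.1e-10). Both held under all 9 settings. The strand setting of the counting is not given in the sources used here, so reads of Airn cannot be told from those of Igf2r where the genes overlap, and the same holds for Mhrt, which overlaps Myh7. Grb10, an imprinted inhibitor of insulin and growth factor signalling, fell by 3.38 (adjusted p = 0.0284), a call that was lost without P1 replicate 1 or 4 or any 1 of the 3 P14 libraries, with adjusted p of up to 0.297.

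Many RNA-processing genes fell. All 45 SR proteins, hnRNP proteins and nuclear speckle genes tested had a log2 fold change below 0, with a median of -3.23, and 23 of them fell. The count was 22 with DESeq2, 15 with filterByExpr, 11 with limma-trend and 3 with limma-voom and TMM, where oxidative phosphorylation had 6 of 63 and glucose use 5 of 37. Prpf40b, a splicing factor of the early spliceosome, was at 72.7, 63.6, 17.6 and 108.1 CPM at P1 and had no read at P14, at least 105-fold lower (adjusted p = 0.00162, all 9 settings). Hnrnpc, an RNA-binding protein of the nucleus, also fell, without a read at P14. It was at least 39.2-fold lower and lost its call without P14 replicate 3 or 4 (adjusted p = 0.0572 and 0.0583). Hnrnpdl was without a read at P14 (at least 92.9-fold lower, adjusted p = 0.00306), with P1 values of 110.3, 0, 4.05 and 98.6 CPM, so its call rests on P1 replicates 1 and 4, and against replicates 2 and 3 alone the adjusted p was 0.513.

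Besides Prpf40b, 6 members of this list stayed called under all 9 settings, and they are named here because of that. Son, the scaffold of nuclear speckles, was at 1209, 332, 875 and 3891 CPM at P1 and at 115, 70.4 and 132 CPM at P14, and fell by 3.90 (SE 0.52, adjusted p = 7.18e-11). Srrm1, a speckle protein rich in SR repeats, was at 379 to 3349.7 CPM at P1 and 27.4 to 255 CPM at P14 (-3.29, SE 0.50, adjusted p = 3.78e-08). Srsf11, an SR protein, was at 976 to 2896 CPM at P1 and 149 to 224 CPM at P14 (-3.07, SE 0.47, adjusted p = 3.82e-08). In all 3, no P14 library reached the lowest P1 library. Pnisr (-2.71, adjusted p = 2.62e-07), Rbm39 (-2.30, adjusted p = 0.000123) and Clk1, a kinase of SR proteins (-4.14, adjusted p = 0.000121), made up the rest. Of 24 muscle splicing regulators, 5 fell (Fubp1, Khdrbs1, Rbm20, Rbm24 and Rbpms), and none of these was called under all 9 settings.

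Malat1 (ENSMUSG00000092341, chromosome 19, 5845717 to 5853602, minus strand), a long noncoding RNA of nuclear speckles, was the most abundant transcript that fell. It was at 59239, 12481, 21706 and 90914 CPM at P1, at 29899 to 100908 CPM at P7, and at 6269.8, 1473 and 3285 CPM at P14. Each P14 library was below each P1 and P7 library, and Malat1 fell by 3.65 on the log2 scale (SE 0.23, adjusted p = 2.74e-54), also under all 9 settings. This SE is small beside the scatter of the P1 libraries, 12481 to 90914 CPM. The limma-trend adjusted p given above is far larger. Of 23 nuclear long noncoding RNAs, 4 fell. The other 3 were Neat1, the scaffold of paraspeckles (-2.89, adjusted p = 0.00284), Xist, which silences an X chromosome in females (-2.86, adjusted p = 0.0232), and Mhrt, an antisense transcript of the myosin locus (-1.06, adjusted p = 0.00462). None of these 3 held: Neat1 was at 525, 24.5, 31.7 and 450.3 CPM at P1 and at 49.9, 54 and 0.653 CPM at P14, and Xist at 629, 3.5, 6.75 and 450.3 against 52.7, 25.1 and 34.6 CPM. Both were thus high in P1 replicates 1 and 4 alone. Neat1 lost its call without P1 replicate 1 (adjusted p = 0.115) or P14 replicate 4 (0.178), and Mhrt without P1 replicate 4 (0.348), P14 replicate 3 (0.163) or P14 replicate 4 (0.21). Xist lost it without P1 replicate 1 or 4 or P14 replicate 3 or 4, with adjusted p of up to 0.37. The sex of the pooled pups is not given in the labels.

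Some genes of metabolism fell. Of 41 genes of fatty acid uptake and oxidation, 6 fell (median -1.97), of 63 genes of oxidative phosphorylation 6 fell (median -2.84), and of 37 genes of glucose use 3 fell (median -1.74). With genes that had no read on 1 day set at their bound, the medians of the first and second list were both -1.90, and that of the third was -1.62. Acat1, the mitochondrial thiolase of ketone body use, was at 137, 83.2, 64.8 and 229 CPM at P1 and at 6.33, 1.26 and 0 CPM at P14 (-5.64, SE 1.14, adjusted p = 0.000197). Eno3, the muscle enolase, was at 97.2, 16.1, 0 and 318 CPM at P1 and without a read at P14, at least 187-fold lower (adjusted p = 3.53e-07). P1 replicate 3 overlapped with P14 at 0, so the Eno3 call against P1 replicates 2 and 3 alone (adjusted p = 0.0372) rests on replicate 2. Both held under all 9 settings. Acadm, the medium-chain acyl-CoA dehydrogenase, had 3 reads at P14 and was 122-fold lower (counting interval 41.5 to 594, adjusted p = 0.00332, and 0.0688 without P14 replicate 4). Sdha, a subunit of complex II, was at 239, 0, 0 and 135 CPM at P1 and without a read at P14, and Atp5f1b, a subunit of ATP synthase, at 98.2, 2.1, 8.1 and 123 CPM and without a read. Both passed the test (adjusted p = 0.000127 and 0.00312) on P1 replicates 1 and 4, and neither was called with the share on no gene as a term (adjusted p = 0.219 and 0.354). Ppargc1a, the coactivator PGC1-alpha of mitochondrial genes, fell by 2.71 (adjusted p = 0.0432), a call lost without any 1 of P1 replicates 1 and 4 and P14 replicates 2 to 4, with adjusted p of up to 0.346. Of 67 cytosolic ribosomal protein genes 1 fell (Rps14), and of 8 mitochondrially encoded genes 1 fell (mt-Rnr2), and both calls were lost without single libraries, with adjusted p of up to 0.14 without P1 replicate 4 or any P14 library for Rps14, and 0.427 without P1 replicate 1 or 4 or any P14 library for mt-Rnr2.

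Few genes of the cell cycle were called. Of 44 DNA replication genes 2 fell (median -2.17), of 57 genes of mitosis and cytokinesis 2 fell (median -0.28), and of 36 G1 cyclins, CDK inhibitors, E2F and DREAM genes none passed the test. Lig1 (ENSMUSG00000056394, chromosome 7, 13011239 to 13045350), the ligase that joins Okazaki fragments, was at 113, 117, 33.8 and 168 CPM at P1, at 176 to 349 CPM at P7, and without a read at P14. It was at least 171-fold lower than at P1 (adjusted p = 1.77e-09). Rfc1, the large subunit of the clamp loader, was at 81.8 to 345 CPM at P1 and at 33.7, 0 and 1.31 CPM at P14 (-3.99, SE 0.82, adjusted p = 0.000286). Both held under all 9 settings. Kif20b, a kinesin of cytokinesis, was at 9.09 to 29 CPM at P1, at 59.6 to 156 CPM at P7, and without a read at P14, at least 32.2-fold lower than at P1 (adjusted p = 0.00549, and 0.0645 and 0.0654 without P14 replicate 3 or 4). Ncapd2, a condensin subunit, had 1 read at P14 (adjusted p = 0.0284) and lost its call without P1 replicate 1 or 4 or any P14 library, with adjusted p of up to 0.199. The smallest p of the G1 list belonged to Ccne2, a cyclin of S phase entry (no read at P14, adjusted p = 0.0989), and E2f5, an E2F factor (0.501, 0, 0 and 0 CPM at P1, 26.7, 66.6 and 0 CPM at P14, adjusted p = 0.116).

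In the list of PIDDosome and p53 genes, 1 of 21 fell. This was Mdm4, an inhibitor of p53, at 155, 4.9, 2.03 and 401 CPM at P1 and at 24.6, 8.8 and 0 CPM at P14 (-3.65, SE 0.90, adjusted p = 0.00481). It was high in P1 replicates 1 and 4 alone and lost its call without P1 replicate 4 (adjusted p = 0.317), P14 replicate 3 (0.0699) or P14 replicate 4 (0.153). Cdkn1a, the p21 gene, had no read in any of the 7 libraries, so no change could be measured at this depth. Pidd1, the sensor of the complex, was read in P1 replicates 1 and 4 alone, at 6.01 and 3.99 CPM. Cradd, the adaptor between PIDD1 and Caspase-2, was at 13.5 to 178 CPM at P1 and 5.23 to 85.5 CPM at P14 (adjusted p = 0.807). Mdm2 was at 16.2 to 63.7 and 0 to 47.1 CPM (adjusted p = 0.832), and Trp53 was read in 1 P1 library at 5.48 CPM (adjusted p = 0.435). The days overlapped for all of these.

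**Figure D4:**
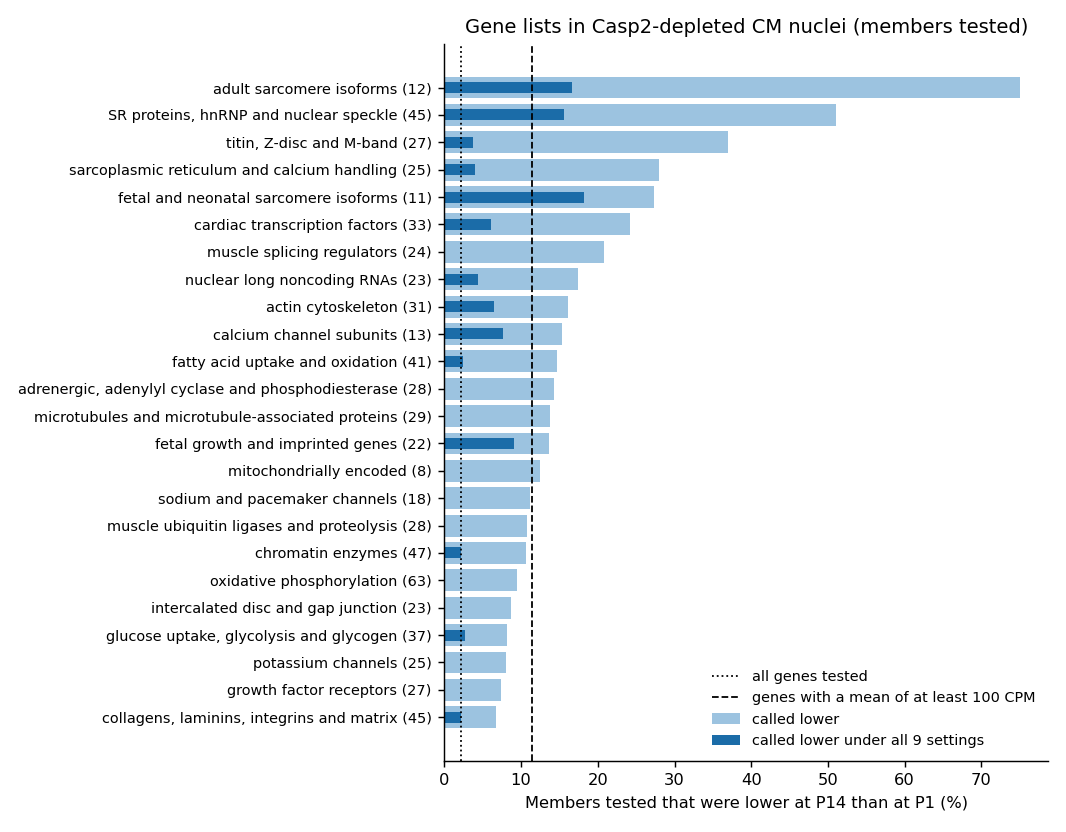
Share of each list's tested members called lower at P14 (light bars) and called lower under all 9 settings (dark bars), for the 24 lists with the highest share in the quasi-likelihood test, with the number tested in brackets. The dotted line is the share of all genes tested (2.13%) and the dashed line that of genes with a mean of at least 100 CPM (11.4%). Adult sarcomere isoforms (9 of 12) and RNA-processing genes (23 of 45) stand highest, and several lists lie at or below the dashed line.

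The remaining lists can be read against the same background. Of 31 actin cytoskeleton genes, 5 fell. Actb, cytoplasmic beta-actin, was at 528, 19.6, 96.5 and 619 CPM at P1 and had 2 reads at P14, an 811-fold lower level (counting interval 224 to 6699, adjusted p = 2.39e-12), and Coro6, a coronin of muscle, was at 4.9 to 221 CPM and without a read at P14, at least 128-fold lower (adjusted p = 8.45e-07). Of 47 chromatin enzymes 5 fell, among them Smarca4, the BRG1 ATPase, from 319 ± 192 to 14.1 ± 18.3 CPM (-4.50, SE 0.83, adjusted p = 2.58e-05). Of 45 matrix genes 3 fell, among them Lamb1, the laminin beta-1 chain, at 199, 62.2, 0 and 283 CPM at P1 and without a read at P14, at least 231-fold lower (adjusted p = 3.84e-07). P1 replicate 3 overlapped with P14 at 0 for Lamb1, so its call against P1 replicates 2 and 3 alone rests on replicate 2. Actb, Coro6, Smarca4 and Lamb1 held under all 9 settings. Microtubule genes fell in 4 of 29 cases, muscle ubiquitin ligases in 3 of 28, growth factor receptors in 2 of 27, and genes of creatine, mitochondrial transport and dynamics in 1 of 37. Of the 18 natriuretic peptide and stress genes the 1 that fell was Ankrd1, and none of 17 immediate early genes was called (Fosl2, adjusted p = 0.251, and Jun, adjusted p = 0.263, had the smallest p). In 31 of the 35 lists the share called lower was above that of all genes tested, 2.13%, and with limma-trend the same held for 27. This mark is low, as 1 call in 37 genes was enough to pass it. Among genes with a mean of at least 100 CPM, 11.4% were called lower, and several lists were at or below that share. The counts of those lists therefore do not set them apart from abundant genes in general. Adult sarcomere isoforms (75%) and SR protein, hnRNP and nuclear speckle genes (51.1%) stood highest above it, with counts that depended on the test. Whether they differ from genes of like level was not tested.

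The share of genes called lower rose with level. It was 0.0159% at a mean of 1 to 10 CPM, 2.45% at 10 to 100 CPM, 9.94% at 100 to 1000 CPM and 63% from 1000 CPM. By gene span it was 0.92% under 10 kb, 2.32% from 10 to 50 kb, 2.74% from 50 to 200 kb and 2.29% from 200 kb. The median log2 fold change moved otherwise, with -0.78 for genes spanning less than 10 kb, -0.65 from 10 to 50 kb, -0.26 from 50 to 200 kb and 0.12 from 200 kb. Genes of 200 kb or more held 25.0 to 32.5% of the reads at P1 and 32.3 to 33.0% at P14. Of the 433 genes called lower, 415 were protein-coding and 14 long noncoding.

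Beyond the lists, the genes with the largest fitted fall whose libraries did not overlap all had no read at P14. The fitted value of such genes is set by the prior count, so the ranking itself favours them. Their order is no order of measured folds. Cdc37l1 (ENSMUSG00000024780, chromosome 19, 28967725 to 29040227), a relative of the kinase cochaperone Cdc37, was at 422, 78.3, 34.4 and 793 CPM at P1 and at 173 to 604 CPM at P7. Its P14 level was lower by at least 569-fold (adjusted p = 5.87e-20). Spaca6, a sperm acrosome protein gene, was at 96.5 to 401 CPM at P1 and at least 401-fold lower at P14, and Pdgfa, a growth factor for mesenchymal cells, at 38.5 to 253 CPM and at least 205-fold lower. Arhgef1, an exchange factor of RhoA, was at least 144-fold lower, Prune1, a phosphodiesterase, at least 128-fold lower, and Abcc5, a transporter of cyclic nucleotides, at least 122-fold lower. These 6 and Lig1 held under all 9 settings. Eif5, a translation initiation factor, was at 124, 18.2, 2.7 and 169 CPM and at least 135-fold lower, and Erdr1y, on the Y chromosome, at 60.6, 36.4, 19.6 and 220.2 CPM and at least 141-fold lower. Neither Eif5 nor Erdr1y passed against P1 replicates 2 and 3 alone (adjusted p = 0.102 and 0.0609).

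The same days were set beside each other in control CM nuclei (P1 replicates 2 to 4, P14 replicates 1, 2 and 4), to see where the Casp2-depleted nuclei differed. In control nuclei 74 genes were called (0.363%), 3 higher and 71 lower. Of the 433 genes called lower without Casp2, 50 were also called lower in controls and 381 had a control log2 fold change below 0, and no gene was called in opposite directions. A difference in the number of calls does not show that the changes differ, and the difference of the 2 changes was tested for each gene in the same fit. It was called for 25 genes (0.123%), 24 with the lower log2 fold change in the Casp2-depleted nuclei and 1, Tnni1, with the lower one in controls. These calls depended on the test. limma-trend called none (1425 genes at an unadjusted p under 0.05), limma-voom with TMM called 24, of which 1 was among the 25, and DESeq2 called 401, of which 21 were. Tnnt2 (control -2.33), Plagl1 (-4.15) and Ankrd1 (-2.64) fell in both genotypes, with differences of -0.18, 0.01 and -1.51 that did not pass the test (adjusted p = 1, 1 and 0.269).

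Tnni1 was at 608, 1263 and 914 CPM in P1 control replicates 2 to 4 and had no read in the 3 P14 control libraries, where the Casp2-depleted P14 libraries were at 43.6, 3.14 and 0.653 CPM. The 2 genotypes overlapped at P1. At P14 every Casp2-depleted value was above 0, but 0.653 CPM is below what a count of 0 allows in the control libraries (2.35 CPM or more before TMM scaling). Replicate 4 is thus not set apart from controls. The difference of the log2 fold changes was 7.61 (SE 1.24, adjusted p = 4.89e-06), a size that depends on the prior count because the P14 controls are at 0, and most of the 68 Casp2-depleted P14 reads were in replicate 2. Without that library the gap at P14 was that of 3.14 and 0.653 CPM to 0 reads, and the difference of 4.63 no longer passed the test (adjusted p = 0.124). With limma-trend it was 2.53 (adjusted p = 0.627). Malat1 was at 14432, 59927 and 38263 CPM at P1 and at 28429, 2542 and 6044 CPM in P14 control replicates 1, 2 and 4. It fell by 1.61 in controls (SE 0.21, adjusted p = 2.8e-10), and by 2.04 more in Casp2-depleted nuclei (SE 0.29, adjusted p = 2e-08). At P14 the genotypes overlapped for Malat1, and the control mean rests on replicate 1, whose share of reads on no gene was 63.7%, against 75.2 and 72.5% in the other control libraries. Without that library the difference of Malat1 was -0.52 and no longer called (adjusted p = 0.677), and it was -0.54 with the share on no gene as a term (adjusted p = 0.482), -0.76 with the replicate block (adjusted p = 0.454) and -1.40 with limma-trend (adjusted p = 0.673). Cdc37l1 was at 1.2, 310.3 and 309 CPM at P1 and at 389.7, 37.4 and 0 CPM at P14 in controls, a difference of -11.46 (SE 1.35, adjusted p = 3.79e-13). Its control P14 libraries ranged from the highest of the 6 values down to 0. The difference stayed called without P14 control replicate 1 (-8.55, adjusted p = 6.96e-06) and with the replicate block (-10.36, adjusted p = 2.93e-08), but not with limma-trend (-5.88, adjusted p = 0.536).

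Differences were called as well for Spaca6 (-7.44, adjusted p = 0.01), Pdgfa (-8.50, adjusted p = 0.0125), Lig1 (-7.89, adjusted p = 0.00945), Abcc5 (-10.03, adjusted p = 0.0322), Myoz2 (-10.97, adjusted p = 0.0125), Acadm (-9.04, adjusted p = 0.0154) and Man2a2 (-7.86, adjusted p = 0.012). In each of these the P14 Casp2-depleted libraries held 0 to 3 reads in all, while at least 1 P14 control library was read at 35.2 CPM or more in Spaca6, 59.8 in Pdgfa, 61.3 in Lig1, 60.6 in Abcc5, 132 in Myoz2, 60.6 in Acadm and 139.5 in Man2a2. The other called differences of the named genes were those of Neat1 (-4.04, adjusted p = 0.0273), 5430431A17Rik (-5.55, adjusted p = 0.000731) and ENSMUSG00000115610 (-2.997, adjusted p = 0.0067). With the share on no gene as a term, 3 differences were called in all, with the replicate block 3, with the groups compared alone 5, and without single libraries 4 to 161. P14 control replicate 1 carried several of them. Without it the difference was 0.10 for Lig1, -0.25 for Spaca6 and -1.89 for Myoz2 (adjusted p = 1.00 each), -1.12 for ENSMUSG00000115610 (adjusted p = 0.61), -6.62 for Man2a2 (adjusted p = 0.0785), and -3.62 for Neat1 (adjusted p = 0.0882), and 5430431A17Rik was not called either (adjusted p = 0.0882). Those of Pdgfa, Abcc5 and Acadm stayed called without it. With the replicate block none of these 10 was called, with adjusted p of 0.284 (Man2a2, Acadm and 5430431A17Rik) to 0.851 (ENSMUSG00000115610). The fall from P1 to P14 in Casp2-depleted nuclei itself held under all 9 settings for Man2a2 (-7.14), 5430431A17Rik (-8.20) and ENSMUSG00000115610 (-3.73) too.

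**Figure D5:**
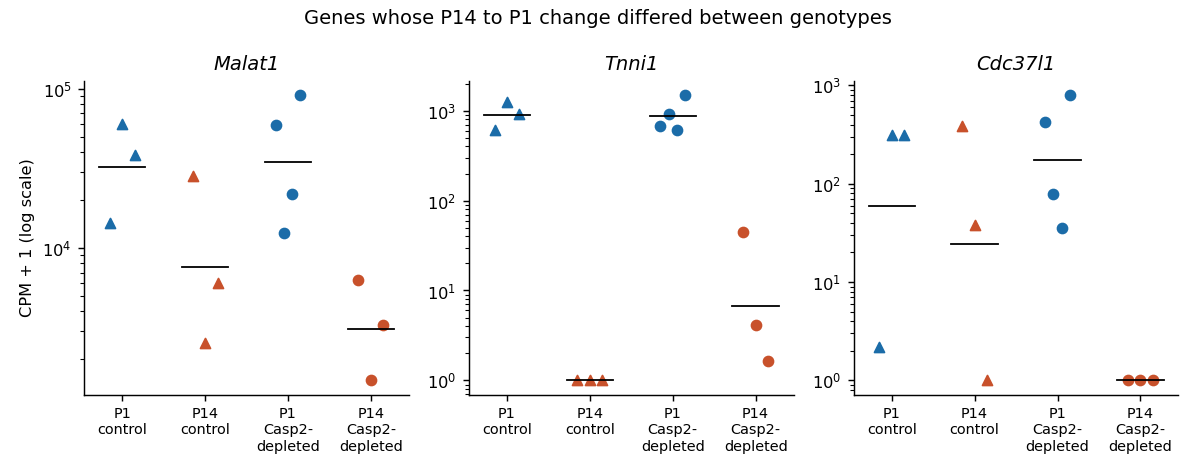
Level (CPM + 1, log scale) of Malat1, Tnni1 and Cdc37l1 in each P1 and P14 library of control (triangles) and Casp2-depleted (circles) nuclei, with bars at the mean of the log values. Tnni1 is at 0 reads in the 3 P14 control libraries and at 0.653 to 43.6 CPM in the Casp2-depleted ones, and Cdc37l1 is at 0 reads in the Casp2-depleted P14 libraries and at 0 to 389.7 CPM in controls. The P14 values of Malat1 overlap between genotypes.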

How the data were processed

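Nuclear RNA of PCM1-sorted cardiomyocyte nuclei was sequenced as 3′ tags (QuantSeq 3′ FWD, a stranded kit). The authors checked reads with FastQC 0.11.8, trimmed them with cutadapt 4.0, aligned them to GRCm39 with STAR 2.6.1e and counted reads over exons and introns of each gene with HTSeq 2.0.3, and deposited these raw counts, 1 file per library. The strand setting of the counting is not given in the sources used here. Of 56923 identifiers per file, 56236 were named by the annotation, and they held 99.5% of the reads. Reads on no gene entered neither the library sizes nor any test. The report gives their share.

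From the deposited counts, libraries were grouped by genotype and day from the labels. Genes with at least 10 reads in all and a read in at least 3 of 21 libraries were fitted with edgeR 4.0.16 (R 4.3.3; TMM scaling, 6 group means, glmQLFit and glmQLFTest), with Benjamini-Hochberg adjustment over all genes tested. The 3 libraries left out were replicate 1 of the P1 controls, replicate 3 of the P14 controls and replicate 1 of the Casp2-depleted P14 nuclei. SE was obtained by dividing each log2 fold change by the square root of its F value. Single values per library were compared by exact permutation tests (scipy 1.17.1, two-sided). A count of 0 has a limit of 3 reads, per library for a level and over the group for a fold. These limits and the intervals cover counting error only, and not the spread between libraries. Whether pools came from separate litters is not given in the sources used here, so p-values concern these pools only. The SE of the quasi-likelihood test can be smaller than the scatter between a gene's own libraries, as for Malat1. Very small p-values of abundant genes are therefore not to be taken at face value.

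Named are up to 10 called genes each by largest rise and by largest fall among those whose libraries did not overlap, the 10 called genes with the highest mean, up to 4 called genes of each of 35 lists by size of change or, in a list without one, the 2 with the smallest p, fixed sarcomere and PIDDosome genes, and up to 10 genotype differences by smallest p, 127 genes in all. Other called list members are named without values. Genes singled out later are marked in the report. The members and lists were chosen with earlier results of these data known. The test was checked on simulated data. Alternatives were other scalings and filters, DESeq2 1.42.0, limma 3.58.1, other sets of libraries, equal depth, a replicate block, the share on no gene as a term, and each library left out. The fits against P1 replicates 2 and 3, or 1 and 4, alone and limma-trend (log2 CPM, prior count of 2, no weights) were chosen after seeing the data. Promoter sequences are from RefSeq on GRCm38.p6. A few results are not reported here.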

Additional observations from a re-analysis of the deposited data

Results flagged for a closer look

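Among the 148 groups of 4 Casp2-depleted libraries checked, 9 had 1 library far from the other 3 by Dixon's test at the 95% level. Chance flags about 1 in 20 groups, and 8 of the 9 are given here. At P1 the highest library stood apart for Gm3838 (3.51 CPM, replicate 1), Irx4 (161 CPM, replicate 4), Rara (146 CPM, replicate 4), E2f5 (0.501 CPM, replicate 1), Myl7 (20.9 CPM, replicate 4) and Trp53 (5.48 CPM, replicate 4). The same held for the summed fibroblast markers (473 CPM, replicate 1) and the summed epicardial and mesothelial markers (279 CPM, replicate 3). For E2f5, Myl7 and Trp53 the other 3 P1 libraries had no read. The flag then follows from 1 library having any read, whatever its level, and the share of 1 in 20 does not apply.

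The change from P1 to P14 differed between the genotypes, by the test of the difference itself, for 13 of the named genes. The differences of the log2 fold changes, Casp2-depleted minus control, were -11.46 for Cdc37l1, -10.97 for Myoz2, -10.03 for Abcc5, -9.04 for Acadm, -8.50 for Pdgfa, -7.89 for Lig1, -7.86 for Man2a2, -7.44 for Spaca6, -5.55 for 5430431A17Rik, -4.04 for Neat1, -2.997 for ENSMUSG00000115610, -2.04 for Malat1 and 7.61 for Tnni1. Of 29 other settings, the call held in 25 for Tnni1, 24 for Cdc37l1, 20 for Malat1 and 5430431A17Rik, 17 for Spaca6 and Lig1, 15 for ENSMUSG00000115610, Acadm and Pdgfa, 14 for Man2a2 and Myoz2, and 11 for Neat1 and Abcc5.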

How the results depend on the processing

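Genes called lower and higher at P14 numbered 433 and 9. They were 245 and 4 with filterByExpr, 179 and 17 with library size alone, 1052 and 133 with DESeq2, 102 and 1 with all 24 libraries, 129 and 3 with only the groups compared, and 83 and 2 with the share on no gene as a term. Higher calls were 17 with limma-trend, chosen after seeing the data, 56 with limma-voom and TMM, 179 with quantile normalization, 5 after thinning to equal depth and 4 with robust dispersions. Leaving out single libraries gave 193 to 531 lower and 5 to 13 higher. Against P1 replicates 2 and 3 alone 91 were lower, and against 1 and 4 alone 18 were higher, both settings chosen after seeing the data.

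The 74 control calls became 29 with filterByExpr, 48 with library size alone, 520 with DESeq2, 205 and 126 with limma-voom (TMM, quantile), 38 with limma-trend, 26 with all 24 libraries, 4 with only the groups compared, and 40 to 183 without single libraries. The 25 genotype differences became 2 with filterByExpr, 16 with no filter, 16 with DESeq2-type size factors, 5 with library size alone, 401 with DESeq2, 0 with limma-trend (1425 at an unadjusted p under 0.05), 10 with all 24 libraries, 5 with only the groups compared, 11 at equal depth, 13 with robust dispersions, 3 with the share as a term, and 4 to 161 without single libraries. The cause of these moves was not tested.

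With the replicate block, 272 genes were lower, 2 higher and 3 differed between genotypes. Same-numbered P1 and P14 Casp2-depleted libraries did not deviate together (r of -0.0035, 0.0044 and 0.0094 for numbers 2, 3 and 4), and no label gives what the batch of the same number in the file names is, so the block was kept as an alternative. Of 111 named genes called, 78 kept their call with it and 33 did not.

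Directions turned in some settings. With the share as a term the log2 fold change was 0.88 for Ttn, 1.19 for Myl3, 0.16 for Rbm24, 1.79 for Xist, 0.049 for Lamb2, 0.53 for mt-Rnr2, 0.29 for Pidd1 and 0.32 for Cradd. Against P1 replicates 2 and 3 alone it was 0.88 for Ttn, 1.92 for Myl3, 0.32 for Neat1, 2.86 for Xist, 1.66 for Mdm4, 5.01 for Lamb2, 0.25 for mt-Rnr2 and 0.0025 for Cradd. With quantile normalization it was 0.84 for Ttn and 0.35 for Mhrt. Without single libraries it ranged from -1.72 to 0.12 for Ttn (without P1 replicate 4), from -0.98 to 0.076 for Cradd (0.042 without P1 replicate 4, 0.076 without P14 replicate 4) and from -5.99 (without P14 replicate 3) to 7.39 for Myl7. With all 24 libraries Mdm2 was at 0.53, the Lig1 difference ranged from -8.48 to 0.10 (without P14 control replicate 1), and with P14 library 1 added the epicardial marker sum differed by 81.9 CPM. The cause was not tested. At 976714 to 2727103 reads on genes, genes near 0 at one day have no measured fold.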
